A study of Mus musculus with 6 samples.

Results

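The G2/M and mitosis genes described here are 42 genes that a dividing cell uses between the end of DNA replication and the separation of its daughters. They were chosen by name: mitotic cyclins and kinases, spindle checkpoint, kinetochore, kinesin, cytokinesis and anaphase genes, with Mki67 and Plk1 as markers. All 42 were found among the 54532 rows of the deposited expression table, and all 42 passed the filter on low values. The study sequenced RNA of mouse back epidermis after deletion of Spry1, which encodes Sprouty1, a protein that growth factor signalling induces and that dampens that signalling in turn. The knockout group (n = 3) carried Spry1flox/flox with K14-Cre-ERT2, a Cre recombinase that tamoxifen activates and that the keratin 14 promoter drives in basal keratinocytes. The control group (n = 3) carried Spry1flox/flox alone. Both groups received oral tamoxifen in corn oil for 4 weeks, with 4 doses per week of 0.1 mg for each g of body weight. Since no group had Cre alone, an effect of Cre cannot be told apart from one of losing Spry1. The sources used here give no age, sex or strain. They also leave unsaid whether each sample came from its own animal, and a p-value then reflects the spread of these samples alone, which may be technical.

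In normal epidermis, division takes place in the basal layer and in hair follicles, and cells that leave the basal layer stop cycling. Entry into mitosis depends on cyclin B bound to Cdk1, which the Cdc25 phosphatases switch on, and exit depends on the anaphase promoting complex (APC/C), a ubiquitin ligase that marks cyclin B and securin for destruction. Most genes of this programme are transcribed late in the cell cycle, when the MuvB complex acts with B-Myb and Foxm1, and are repressed in resting cells by MuvB within the DREAM complex. Their RNA is commonly read as a measure of cycling cells in a tissue. In bulk tissue, a change in the number of cells of a type and a change in the RNA of each cell cannot be told apart.

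Spry1 itself read 1.06, 1.49 and 1.28 FPKM (fragments per kilobase, a level scaled for gene length and sequencing depth) in knockout samples 1 to 3, against 25.8, 28.2 and 34.4 FPKM in the controls. Reads recovered from the FPKM values summed to 18383308 to 21024680 per sample. In a principal component analysis the genotypes separated on the first component (82.7% of the variance), and Control 3 stood apart from the other controls on the second (8.5%). The Y-linked gene Eif2s3y read 0.203, 19.3 and 0.0438 FPKM in the knockouts (17, 1390 and 3 recovered reads) and 0 in every control. By that gene knockout 2 held male tissue and the other samples little or none. Knockout 2 thus differed in source from the other knockouts, and sex was not balanced between the groups. The part of sex in the differences was not tested. Knockout epidermis differed widely from control epidermis. Of 12629 genes tested with limma at a Benjamini-Hochberg adjusted p below 0.05, 29.6% were higher and 24.4% were lower in the knockouts. Scaling to TPM, in which every sample has the same sum, gave 16.3% higher and 35.4% lower and moved the median of all genes by -0.25 log2 units. With limma-voom on the recovered reads 23.1% were higher and 30.1% lower, and that median moved by -0.12.

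Most of the mitotic programme was higher in Spry1 knockout epidermis. Of the 42 genes, 39 rose, 2 fell and 1 did not pass the test, against a background of 29.6% higher, 24.4% lower and 54% changed in either direction among all genes tested. Plk1 (polo-like kinase 1), Cdc20 (the APC/C activator of anaphase), Ube2c (its ubiquitin-conjugating enzyme) and Ccnb2 (cyclin B2) had the highest log2 fold changes on the log2(FPKM + 1) scale. By the ratio of mean FPKM, knockout over control, the order differed: Plk1 was again first at 7.67, followed by Birc5 (survivin) at 6.37, Ube2c at 6.26 and Bub1 (a checkpoint kinase) at 6.24, with Cdc20 at 6 and Ccnb2 at 5.74. The 2 that fell were Ttk, the checkpoint kinase Mps1, and Pttg1, securin, which holds separase in check. The gene that did not pass was Espl1, which encodes separase itself. Log2 fold changes of knockout over control, on the log2(FPKM + 1) scale, ran from -0.56 to 2.52 with a median of 1.68, beside 0.03 over all genes tested. This scale understates the change of genes with low FPKM. A log2 fold change of at least 1 with a passed test was seen for 34 of the 42, against a background of 8.11%. All 3 knockout samples lay above all 3 controls in 39 genes (background 34.9%) and below them in 2 (background 29.4%). With TPM scaling 38 of the 42 were still called higher and Ttk and Pttg1 were called lower. Neither fall passed without Control 1, Control 2 or knockout 1, where limma called 0 members lower and both genes kept an unadjusted p below 0.05. Limma-voom, run only on all 6 samples, called both lower.

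**Figure D1:**
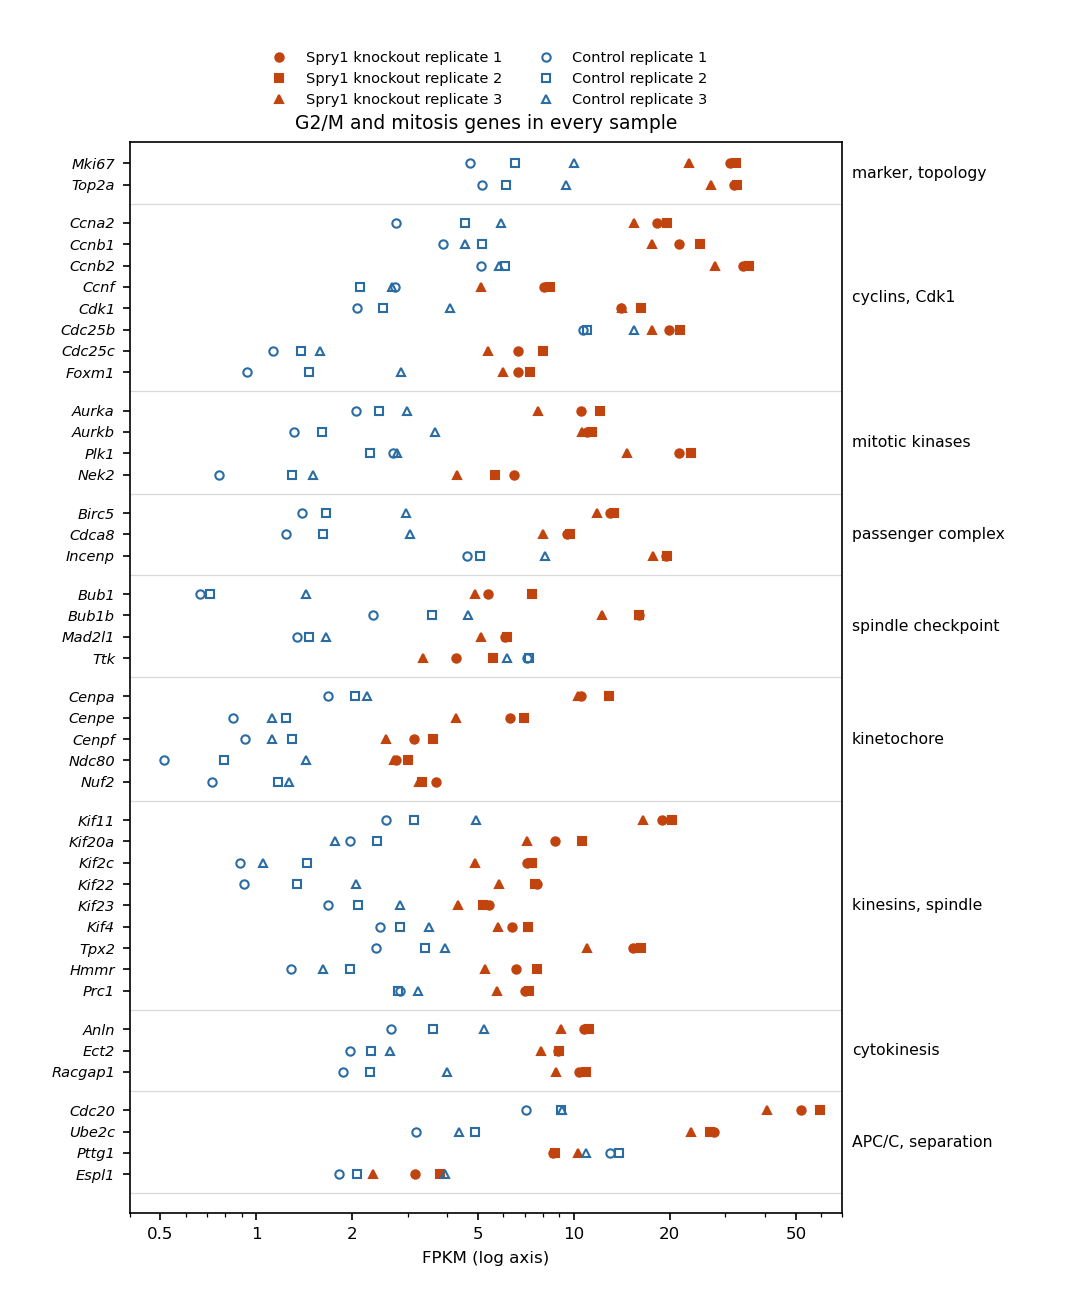
FPKM (log axis) of each of the 42 genes, grouped by role. Filled symbols are the 3 Spry1 knockout samples and open symbols the 3 controls. Each symbol shape is 1 replicate number, by which the labels name no pairing. The knockout symbols sit right of the control symbols in 39 genes and left of them in Ttk and Pttg1, and the groups overlap in Espl1.

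The fewest recovered reads of a member were 271 in a knockout sample (Ttk) and 53 in a control (Bub1). Summed over the 42 genes, reads ran from 36534 to 54307 in the knockouts and from 10493 to 17749 in the controls. The 42 genes together made up 0.132%, 0.130% and 0.0935% of the FPKM sum in knockouts 1 to 3, against 0.0306%, 0.0370% and 0.0509% in controls 1 to 3.

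The start regions of these genes are shown first, because members that moved together and the 2 that went the other way can be compared there by their letters. CCAAT is the box bound by NF-Y, and TTTGAA or TTCGAA is the core of the cell cycle homology region (CHR), the element that MuvB complexes bind. Start regions from 250 bases before to 50 bases after the start were taken from RefSeq (GRCm38.p6), which gave 37 regions for 35 of the 42 genes. Foxm1, Aurkb, Incenp, Cdc25c, Tpx2, Kif20a and Ccna2 were not matched. Both strands were searched, TTCGAA, which reads the same on both, was counted once, and overlapping hits were all counted. In the sequences below, 5′ to 3′ on the gene's strand, capitals mark these motifs on either strand (ATTGG is CCAAT and TTCAAA is TTTGAA on the opposite strand). Positions are counted from the start at 1, with negative positions before it. The regions are Plk1 at chr7:122159185-122159484 on the plus strand, Cdk1 at chr10:69352863-69353162 on the minus strand, Ccnb2 at chr9:70421505-70421804 on the minus strand, Ttk at chr9:83834439-83834738 on the plus strand and Pttg1 at chr11:43425932-43426231 on the minus strand.
Plk1: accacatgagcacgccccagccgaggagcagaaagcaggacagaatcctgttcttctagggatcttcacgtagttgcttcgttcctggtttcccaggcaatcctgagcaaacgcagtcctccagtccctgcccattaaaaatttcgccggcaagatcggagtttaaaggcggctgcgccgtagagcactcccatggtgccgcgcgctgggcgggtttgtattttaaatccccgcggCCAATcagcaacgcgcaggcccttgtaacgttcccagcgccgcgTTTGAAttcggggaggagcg
Cdk1: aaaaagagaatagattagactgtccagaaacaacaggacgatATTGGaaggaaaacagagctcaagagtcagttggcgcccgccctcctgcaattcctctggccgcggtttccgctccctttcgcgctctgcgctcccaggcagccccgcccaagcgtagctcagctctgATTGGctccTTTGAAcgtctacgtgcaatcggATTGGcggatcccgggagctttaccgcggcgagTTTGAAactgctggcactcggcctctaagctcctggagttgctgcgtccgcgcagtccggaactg
Ccnb2: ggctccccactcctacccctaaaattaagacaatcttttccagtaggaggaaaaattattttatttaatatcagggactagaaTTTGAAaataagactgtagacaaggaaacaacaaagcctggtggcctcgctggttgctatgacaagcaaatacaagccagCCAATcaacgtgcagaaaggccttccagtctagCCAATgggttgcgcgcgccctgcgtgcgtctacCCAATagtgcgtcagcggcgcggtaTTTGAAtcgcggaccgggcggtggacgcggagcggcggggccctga
Ttk: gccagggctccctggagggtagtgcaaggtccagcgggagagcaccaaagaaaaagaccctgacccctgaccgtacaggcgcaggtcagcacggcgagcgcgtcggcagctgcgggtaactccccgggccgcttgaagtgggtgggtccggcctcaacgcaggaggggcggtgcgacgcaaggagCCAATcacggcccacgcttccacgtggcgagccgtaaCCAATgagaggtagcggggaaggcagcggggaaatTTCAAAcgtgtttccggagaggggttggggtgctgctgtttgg
Pttg1: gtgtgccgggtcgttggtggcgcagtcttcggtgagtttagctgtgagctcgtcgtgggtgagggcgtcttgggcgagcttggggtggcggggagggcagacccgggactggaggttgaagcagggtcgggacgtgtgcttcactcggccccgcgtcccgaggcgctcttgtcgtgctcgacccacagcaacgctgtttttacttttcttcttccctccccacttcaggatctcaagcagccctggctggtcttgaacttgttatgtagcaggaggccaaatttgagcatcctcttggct

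Plk1 had a CCAAT at -14 and a TTTGAA at 31. Cdk1 had CCAAT on the opposite strand at -208, -80 and -48, and TTTGAA at -71 and -15. Ccnb2 had CCAAT at -87, -54 and -21, and TTTGAA at -167 and 5. These 3 genes rose. Ttk, which fell, held the same letters: CCAAT at -65 and -28, and TTTGAA on the opposite strand at 8. The Pttg1 window held neither motif. Its RefSeq start, however, lies 270 bases inside the gene as GENCODE draws it, so the window covers a region after the GENCODE start. The RefSeq and GENCODE starts lay within 100 bases of each other for 31 of the 37 regions. Besides Pttg1, the RefSeq start lay further inside the GENCODE gene for Kif2c (3867 bases), Cdca8 (2394), Kif4 (328) and Cenpa (109). For Mad2l1 it lay 169 bases before the GENCODE start. These genes rose, and their windows are counted in the shares below. Espl1, which did not pass the test, had a CCAAT at -44 and a CHR core at -27.

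Across the 37 regions, CCAAT was present in 81.1%, against 37.4% of all 32851 regions of the same length. At least 2 copies of CCAAT were present in 54.1%, against 11.7% of all regions. TTTGAA or TTCGAA was present in 81.1%, against 19.2%. Both kinds of motif occurred in 73% of the 37 and in 7.52% of all regions. A CHR core within 50 bases of the start was found in 75.7% of the 37 and in 5.31% of all. Of the 32 matched genes that rose, 26 held TTTGAA or TTCGAA and 26 held CCAAT. Birc5, Ccnb1, Cenpe, Mad2l1, Nek2 and Nuf2 rose without a TTTGAA or TTCGAA in this window. A match describes letters in the window and shows neither binding nor use.

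The proliferation markers were several times more abundant in the knockouts. Mki67 (chr7:135689784-135716361, GRCm38), which encodes the Ki-67 coat protein of mitotic chromosomes, read 31.0, 32.3 and 23.0 FPKM in knockouts 1 to 3, against 4.70, 6.53 and 10 FPKM in controls 1 to 3. The groups did not overlap, although Control 3 was the highest control. Its log2 fold change was 1.92 ± 0.25 (SE, n = 3 each; limma adjusted p = 0.000874). Top2a, the topoisomerase that untangles sister chromatids, read 32.0, 32.6 and 27.0 FPKM in the knockouts and 5.14, 6.12 and 9.44 FPKM in the controls. The fitted log2 fold change was 2.03 ± 0.20 (SE, limma adjusted p = 0.000273).

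All 8 cyclins, Cdk1 and its activators rose, with log2 fold changes from 0.64 to 2.32 and a median of 1.76. Ccnb2 (cyclin B2) read 34.0, 35.6 and 27.8 FPKM in the knockouts, against 5.09, 6.07 and 5.83 FPKM in the controls. The controls lay close together and far below every knockout, and the log2 fold change was 2.32 ± 0.12 (SE, limma adjusted p = 2.61e-05). Cdk1, the kinase that cyclin B activates, averaged 14.9 ± 1.25 FPKM in knockouts and 2.88 ± 1.05 FPKM in controls (SD, n = 3 each). Ccnb1 (cyclin B1) rose by 2.01 log2 units, Ccna2 (cyclin A2) by 1.84 and Ccnf (cyclin F, part of a ubiquitin ligase) by 1.20. Foxm1, the transcription factor that drives late cell cycle genes, averaged 6.65 ± 0.646 FPKM in knockouts and 1.76 ± 0.995 FPKM in controls (SD, n = 3 each), and rose by 1.53 log2 units. Of the phosphatases that activate Cdk1, Cdc25c rose by 1.69 log2 units and Cdc25b by 0.64.

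Cdc25b showed the smallest rise of all members that passed. It read 19.9, 21.6 and 17.6 FPKM in the knockouts and 10.7, 11.0 and 15.5 FPKM in the controls. On the log2 scale the change was 0.64 ± 0.15 (SE, limma adjusted p = 0.0112), and with TPM scaling it was 0.39 with an adjusted p of 0.15. In control epidermis Cdc25b had the second highest FPKM of the 42 genes, and in the knockouts it was 8th.

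The 4 mitotic kinases rose, with a median of 1.82 log2 units. Plk1, which acts at mitotic entry, at spindle poles and in cytokinesis, had the highest log2 fold change of the 42. Located at chr7:122159439-122169873 (GRCm38), it read 21.5, 23.3 and 14.7 FPKM in the knockouts, against 2.69, 2.29 and 2.78 FPKM in the controls. The control values differed by little and the lowest knockout was far above them, with a ratio of means of 7.67. The log2 fold change was 2.52 ± 0.17 (SE, limma adjusted p = 7.64e-05). By level Plk1 stood 7th of the 42 in the knockouts and 21st in the controls. Aurka, the Aurora kinase of the spindle poles, rose by 1.66 log2 units, and Aurkb, the Aurora kinase of the centromere, by 1.98. Nek2, which helps to separate centrosomes, read 6.49, 5.65 and 4.28 FPKM in the knockouts and 0.765, 1.30 and 1.51 FPKM in the controls, a log2 fold change of 1.56 ± 0.18 (SE, limma adjusted p = 0.000566).

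The partners of Aurkb in the chromosomal passenger complex, which corrects faulty attachments of chromosomes to the spindle, rose with it. Birc5 (survivin) read 13.0, 13.4 and 11.8 FPKM in the knockouts, against 1.39, 1.66 and 2.96 FPKM in the controls. The log2 fold change came to 2.23 ± 0.19 (SE, limma adjusted p = 0.000165). Incenp, the scaffold of the complex, read 19.5, 19.7 and 17.7 FPKM in the knockouts and 4.62, 5.05 and 8.10 FPKM in the controls. Its log2 fold change was 1.56 ± 0.18 (SE, limma adjusted p = 0.000559). Cdca8 (borealin) lay between them at 1.81. In Birc5, Incenp, Cdca8 and Aurkb, Control 3 was the highest control.

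**Figure D2:**
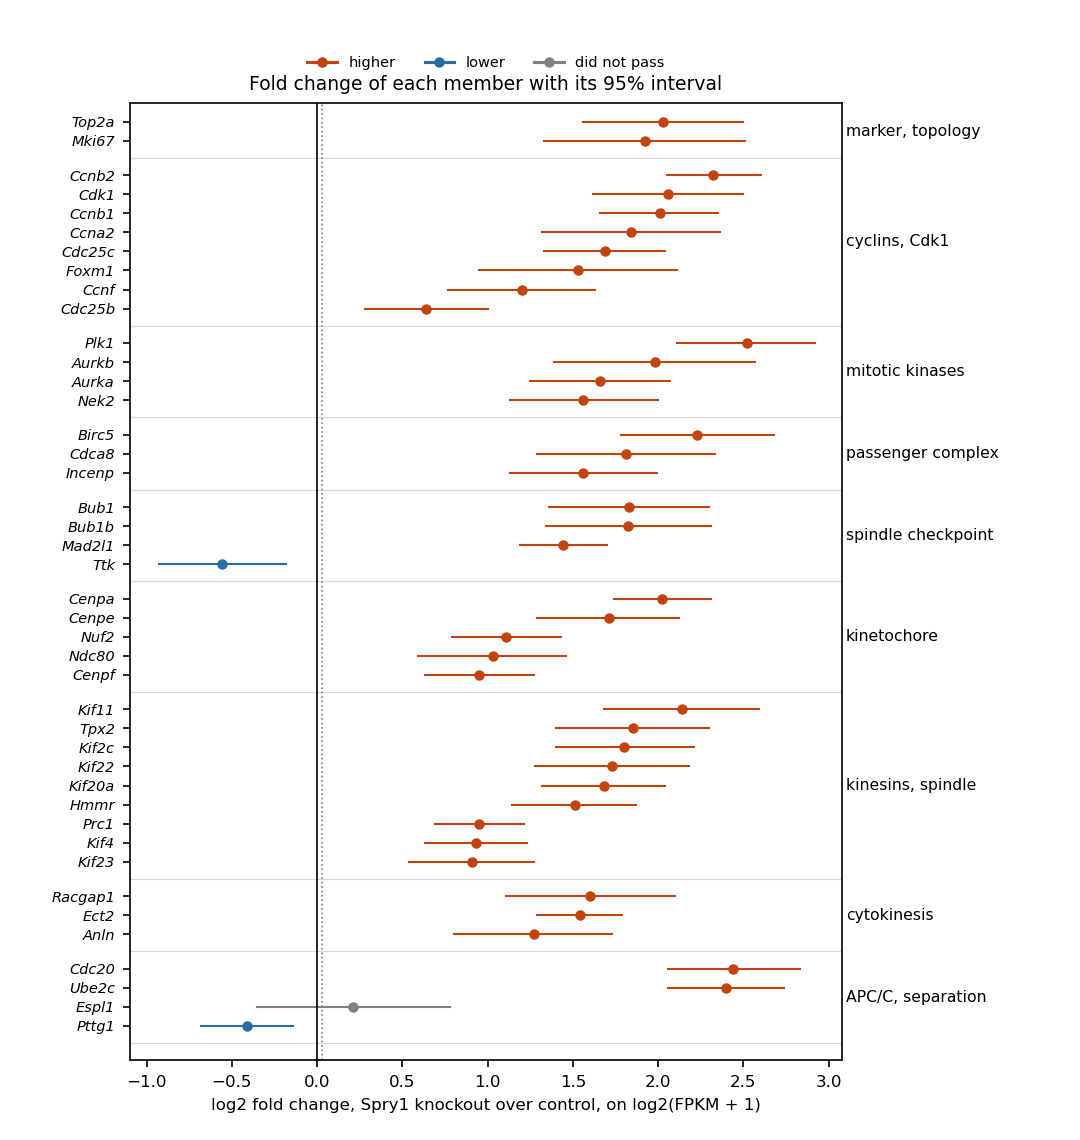
Log2 fold change of knockout over control on the log2(FPKM + 1) scale for the 42 genes, with the 95% interval of the limma fit (n = 3 each); the solid line marks 0 and the dotted line the median of all genes tested, 0.03. Plk1 is highest at 2.52, Ttk at -0.56 and Pttg1 at -0.41 lie below 0, and the interval of Espl1 spans 0.

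The spindle checkpoint, which delays anaphase until every chromosome is attached, split: 3 genes rose and Ttk fell. Bub1, a checkpoint kinase at the kinetochore, read 5.35, 7.37 and 4.87 FPKM in the knockouts, against 0.668, 0.716 and 1.44 FPKM in the controls. Every knockout lay well above every control, and the log2 fold change was 1.83 ± 0.20 (SE, limma adjusted p = 0.000423). Bub1b (BubR1) and Mad2l1 (Mad2), which form the complex that inhibits Cdc20, rose by 1.82 and 1.44 log2 units.

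Ttk (Mps1) phosphorylates the kinetochore scaffold to which Bub1 and Mad2 are then recruited. Located at chr9:83834689-83872389 (GRCm38), it read 4.27, 5.58 and 3.35 FPKM in the knockouts, against 7.14, 7.21 and 6.17 FPKM in the controls. The groups did not overlap, but the highest knockout came close to the lowest control. The log2 fold change was -0.56 ± 0.16 (SE; 95% interval -0.93 to -0.18; limma adjusted p = 0.022). The call was lost without Control 1, Control 2, knockout 1 or knockout 3 (adjusted p 0.0658, 0.0643, 0.0637 and 0.0526) and without the filter on low values (0.051), while the direction was kept. In the controls Ttk was the most abundant of the 4 checkpoint genes, at 6.84 FPKM beside 3.53 for Bub1b, 1.49 for Mad2l1 and 0.940 for Bub1. In the knockouts it was the least abundant, at 4.40 FPKM beside 14.8 for Bub1b, 5.86 for Bub1 and 5.78 for Mad2l1. No other annotated gene shares exon bases with Ttk.

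Every centromere and kinetochore member rose, with log2 fold changes from 0.95 to 2.02 and a median of 1.11. Cenpa, the histone H3 variant that marks centromeres, read 10.5, 12.9 and 10.3 FPKM in the knockouts, against 1.69, 2.05 and 2.24 FPKM in the controls. The fitted log2 fold change was 2.02 ± 0.12 (SE, limma adjusted p = 4.46e-05). Cenpe, a kinesin that moves chromosomes to the spindle equator, rose by 1.71. Ndc80 and Nuf2, subunits of the complex that grips microtubules, were among the least abundant members, and rose by 1.03 and 1.11. Cenpf, a large kinetochore protein, read 3.13, 3.61 and 2.57 FPKM in the knockouts and 0.924, 1.30 and 1.12 FPKM in the controls. On the log2 scale the change was 0.95 ± 0.14 (SE, limma adjusted p = 0.0013), while the ratio of its means was 2.78.

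The 9 kinesins and spindle proteins rose, with a median of 1.68 log2 units. Kif11 (Eg5), the motor that pushes spindle poles apart, read 19.0, 20.4 and 16.5 FPKM in the knockouts, against 2.56, 3.14 and 4.93 FPKM in the controls. The log2 fold change came to 2.14 ± 0.19 (SE, limma adjusted p = 0.000201). Tpx2, which activates Aurora A on the spindle, rose by 1.85, Kif2c (MCAK, a microtubule depolymerase) by 1.80, Kif22 (a chromosome-borne kinesin) by 1.73, and Hmmr (a spindle pole protein) by 1.51. Kif23 (MKLP1), a motor of the central spindle, had the lowest log2 fold change of the 9. It read 5.42, 5.16 and 4.32 FPKM in the knockouts and 1.69, 2.09 and 2.84 FPKM in the controls, a log2 fold change of 0.91 ± 0.15 (SE, limma adjusted p = 0.00264). Prc1, which bundles midzone microtubules, rose by 0.95 and Kif4, its motor partner, by 0.93. Kif20a (MKLP2), which also works at the midzone, rose by 1.68.

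The cytokinesis genes Racgap1, Ect2 and Anln rose. Racgap1, the partner of Kif23 in centralspindlin, read 10.4, 10.9 and 8.76 FPKM in the knockouts and 1.88, 2.28 and 4.00 FPKM in the controls. Its log2 fold change was 1.60 ± 0.21 (SE, limma adjusted p = 0.000884). Ect2, the exchange factor that activates RhoA at the division plane, rose by 1.54. Anln (anillin), the scaffold of the contractile ring, read 10.8, 11.2 and 9.10 FPKM in the knockouts and 2.66, 3.60 and 5.23 FPKM in the controls. The fitted log2 fold change was 1.27 ± 0.19 (SE, limma adjusted p = 0.00179).

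Of the 4 anaphase genes, Cdc20 and Ube2c rose, Pttg1 fell and Espl1 did not pass the test. Cdc20 read 51.7, 59.7 and 40.6 FPKM in the knockouts, against 7.05, 9.08 and 9.20 FPKM in the controls. It was the most abundant of the 42 genes in the knockouts, and its log2 fold change was 2.44 ± 0.16 (SE, limma adjusted p = 7.17e-05). Ube2c, which starts ubiquitin chains for the APC/C, averaged 25.9 ± 2.25 FPKM in knockouts and 4.14 ± 0.868 FPKM in controls (SD, n = 3 each), and rose by 2.40 log2 units.

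Pttg1 (securin; chr11:43420250-43426251, GRCm38) read 8.58, 8.73 and 10.3 FPKM in the knockouts, against 13.0, 13.9 and 10.9 FPKM in the controls. The highest knockout and the lowest control, both replicate 3, were nearly equal. The log2 fold change was -0.41 ± 0.11 (SE; 95% interval -0.68 to -0.14; limma adjusted p = 0.0204). The call was lost without Control 1, Control 2, knockout 1 or knockout 2 (adjusted p 0.065, 0.066, 0.0709 and 0.0684) and with a replicate block (0.0637), with the direction kept. In the controls Pttg1 was the most abundant of the 42 genes, and in the knockouts it was 21st. No other annotated gene shares exon bases with it.

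Espl1 (separase), the protease that cleaves cohesin once securin is destroyed, read 3.17, 3.80 and 2.34 FPKM in the knockouts and 1.83, 2.08 and 3.92 FPKM in the controls. Control 3 was the highest of all 6 samples, so the groups overlapped. The log2 fold change was 0.21 ± 0.24 (SE; 95% interval -0.35 to 0.78; limma adjusted p = 0.477), an interval that also holds changes of the size seen for Cdc25b.

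**Figure D3:**
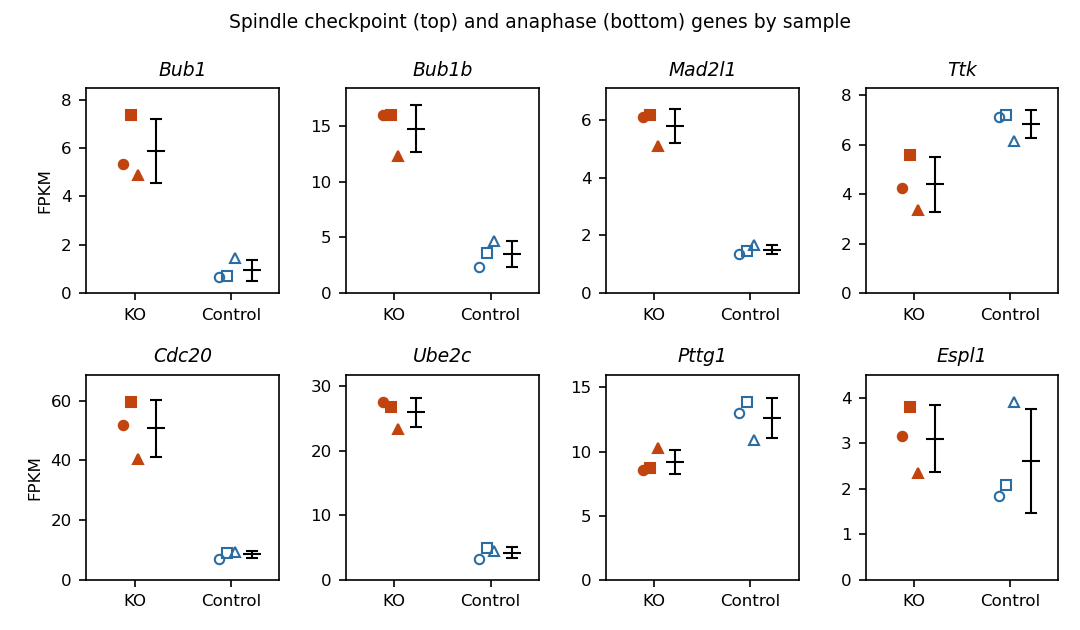
FPKM by sample of the 4 spindle checkpoint genes (top) and the 4 anaphase genes (bottom); filled symbols are knockouts, open symbols controls, circles, squares and triangles are replicates 1, 2 and 3, and bars are mean ± SD (n = 3 each). Ttk averaged 4.40 FPKM in knockouts and 6.84 FPKM in controls, Pttg1 averaged 9.21 FPKM in knockouts and 12.6 FPKM in controls, and Bub1, Bub1b, Mad2l1, Cdc20 and Ube2c were higher in every knockout.

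Within each genotype, the samples kept a similar order from gene to gene. Knockout 3 was the lowest knockout in 40 of the 42 genes and knockout 2 the highest in 36. Control 1 was the lowest control in 36 and Control 3 the highest in 31. Relative to the control mean of each gene, the median ratio was 4.32, 4.70 and 3.45 in knockouts 1 to 3 and 0.775, 0.973 and 1.21 in controls 1 to 3. The order was therefore shared across roles, and the genotypes did not overlap in this median. The order was not counted over all genes tested, so it cannot be called particular to these genes. Without Control 3 the median log2 fold change of the members was 1.78 and 39 were still called higher.

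For 33 E2F factors and G1/S genes, which act in replication before mitosis, the same ratios were 2, 1.92 and 1.76 in the knockouts and 0.811, 0.830 and 1.35 in the controls. Control 3 was the highest control in 32 of these 33 genes. The lowest knockout ratio was nearer to Control 3 there than it was among the G2/M genes.

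**Figure D4:**
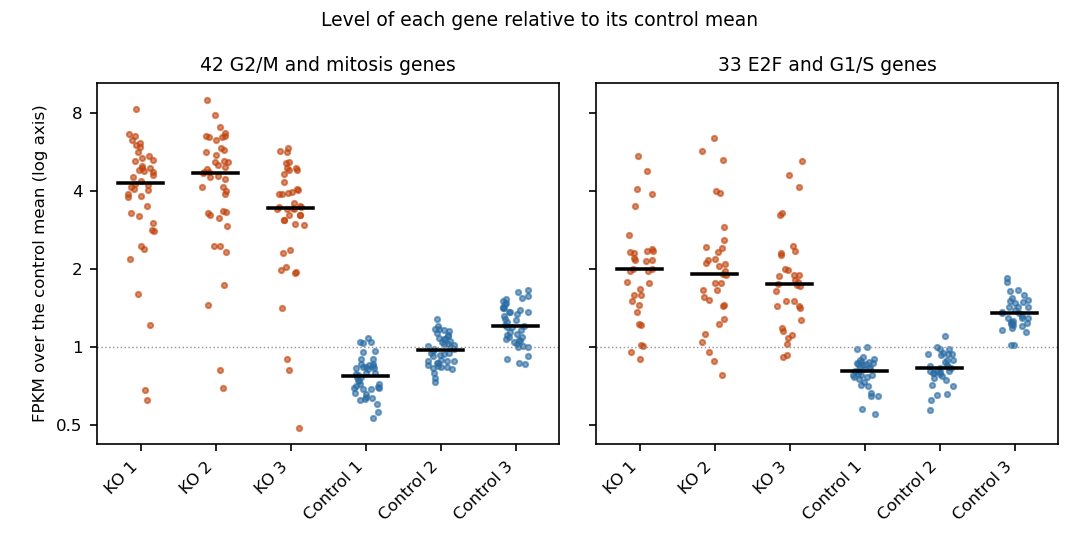
FPKM divided by the control mean of the same gene (log axis) in each sample, for the 42 G2/M and mitosis genes (left) and 33 E2F and G1/S genes (right); each point is 1 gene and each bar the median. The G2/M medians are 3.45 to 4.70 in knockouts and 0.775 to 1.21 in controls; the G1/S medians are 1.76 to 2 in knockouts and 0.811 to 1.35 in controls.

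Some reads of members could belong to neighbours, since the strand setting of the counting is not given. Kif20a, Ube2c, Kif4, Cdc25c, Ccna2 and Prc1 share at least 10% of their exon length with another gene. The largest share was 29.3% of Kif20a with Cdc23, which averaged 4.39 FPKM in knockouts and 4.24 FPKM in controls. Ube2c shared 22.8% with Tnnc2, which was listed at 0 in all samples. Kif4 shared 15.1% with Pdzd11, which averaged 14.6 FPKM in knockouts and 24.7 FPKM in controls.

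Other genes of the cell cycle, taken from lists set beside the members, are given next and are read against the 29.6% higher and 24.4% lower among all genes tested. Of 20 other spindle and cytokinesis genes tested, 18 were higher and 0 lower, with a median of 1.29 (limma; 0 were lower at an unadjusted p below 0.05 and 0 with limma-voom). Knstrn, a kinetochore and spindle protein, rose by 1.41 (limma adjusted p = 8.85e-05), Nusap1, which bundles spindle microtubules, by 1.74 and Ska1, which holds kinetochores to microtubules, by 1.39. Of 30 other centromere and kinetochore genes, 21 were higher and 0 lower in the limma fit, with a median of 0.71. Mis18a, needed for Cenpa loading, rose by 0.71. Spc24, a subunit of the Ndc80 complex, rose by 1.73 and Cenpm, of the inner kinetochore, by 1.41. Hjurp, the Cenpa chaperone, had a log2 fold change of -0.31 (limma adjusted p = 0.0632). It was the only gene of that list lower at an unadjusted p below 0.05, and the only one called lower with limma-voom. Without Control 3, 26 of the 30 were higher and 2 lower.

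Of 16 condensin and cohesin genes, which shape and hold sister chromatids, 11 were higher and 1 lower, with a median of 0.67. The condensin core genes Smc4 and Smc2 rose by 0.89 and 1.33 and the condensin I subunit Ncaph by 1.82 (limma adjusted p = 0.000312, 0.000483 and 0.000559). Ncaph2, its counterpart in condensin II, fell by 0.37 (adjusted p = 0.0037). Of 17 APC/C subunits and regulators, 8 were higher and 1 lower, with a median of 0.27. That was less than the medians of the condensin and cohesin, kinetochore, spindle and G2/M regulator lists. Ube2s, which extends ubiquitin chains, rose by 1.16, Anapc4 by 0.57 and Fbxo5 (Emi1, an APC/C inhibitor) by 0.80. Anapc13 fell by 0.35 (limma adjusted p = 0.0314), a call lost without Control 1, Control 3, knockout 1 or knockout 2 (adjusted p 0.0824, 0.0628, 0.09 and 0.103) and without the filter (0.0543).

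Among 20 other G2/M regulators, 15 were higher and 2 lower, with a median of 1.03. The Cdk1-binding proteins Cks1b and Cks2 rose by 1.97 and 1.61 and Cdca3 by 1.99 (limma adjusted p = 6.95e-05, 0.00015 and 0.000176). Wee1, the kinase that holds Cdk1 inactive, averaged 14.9 FPKM in knockouts and 40.4 FPKM in controls, a log2 fold change of -1.38 (limma adjusted p = 0.00032). Ensa, an inhibitor of the phosphatase PP2A, had a log2 fold change of -0.48 (adjusted p = 0.0281), a call lost without Control 1, Control 2, knockout 1 or knockout 2 (adjusted p 0.0894, 0.0857, 0.0786 and 0.09), without the filter (0.0565) and with a replicate block (0.0737).

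Of 13 MuvB, DREAM and pocket protein genes, a group known for controlling mitotic transcription, 4 were higher and 3 lower, with a median of 0.16, which is near the shares among all genes tested (29.6% higher and 24.4% lower). Mybl2 (B-Myb) rose by 1.68, the E2F partner Tfdp1 by 0.96 and the repressive E2f4 by 0.90 (limma adjusted p = 0.000712, 0.000236 and 0.00113). Rb1, the retinoblastoma protein, fell by 0.42, Tfdp2 by 0.41 and Lin52, a MuvB subunit, by 0.35. The Lin52 call was lost on leaving out any single sample other than Control 3 (adjusted p 0.0506 to 0.0857), without the filter on low values (0.0687) and with a replicate block (0.0722).

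Of the 33 E2F and G1/S genes, 24 were higher and 0 lower, with a median of 0.80 (limma; 0 were lower at an unadjusted p below 0.05 and 0 with limma-voom). Ccne1 (cyclin E1) rose by 1.72, Rrm2 (a ribonucleotide reductase subunit) by 2.15 and E2f8 by 1.40. A cyclin D list held 6 genes: Ccnd1, Ccnd2, Ccnd3, the kinase genes Cdk4 and Cdk6, and the transcription factor gene Myc. Of these, Ccnd3 and Cdk4 rose by 0.73 and 0.65, and without Control 3, 4 of the 6 were higher. Ccnd2 (cyclin D2) averaged 14.6 FPKM in knockouts and 41.9 FPKM in controls, a log2 fold change of -1.46 (limma adjusted p = 2.88e-05). Of 5 CDK inhibitors, Cdkn2d and Cdkn2c rose by 0.61 and 0.40 and Cdkn2b fell by 0.65, and without Control 3, 2 of the 5 were lower. The cyclin D list had 2 of 6 higher and 1 lower, and the CDK inhibitors 2 of 5 higher and 1 lower. These counts were near the 29.6% and 24.4% among all genes tested, given how few genes each list holds. All these lists were chosen with earlier results known, so their counts are descriptions.

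**Figure D5:**
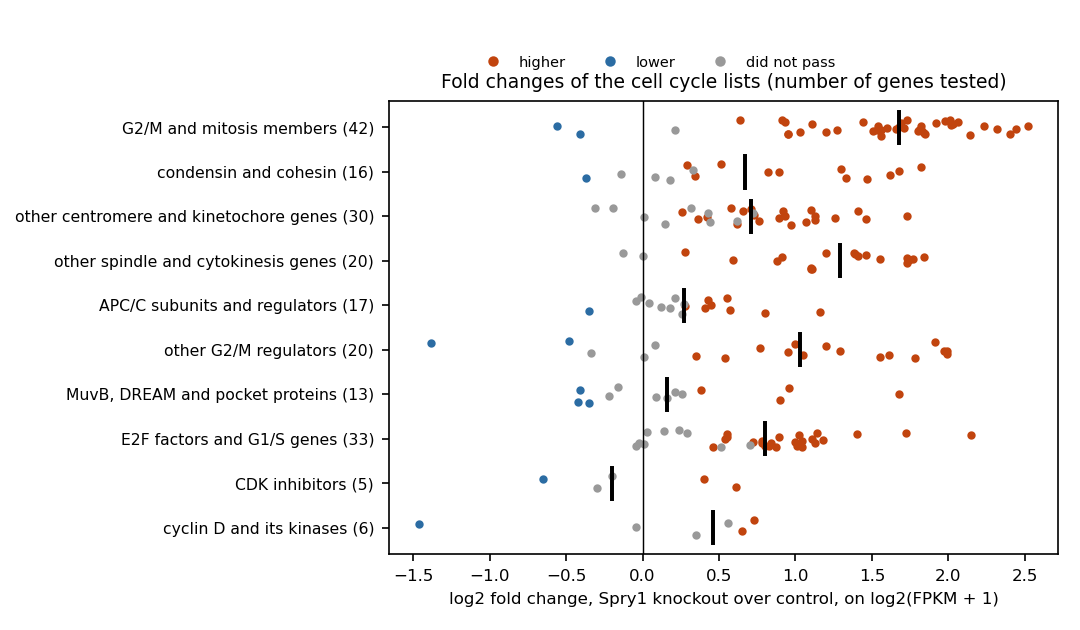
Log2 fold change of knockout over control on the log2(FPKM + 1) scale for each tested gene of the 42 members and of 9 other cell cycle lists; points are genes, coloured by the limma call, and bars are list medians. The member median is 1.68, the G1/S median 0.80 and the APC/C median 0.27; Wee1 at -1.38 and Ccnd2 at -1.46 lie furthest below 0.

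Markers of the cells in the tissue moved with the genotype as well. Summed FPKM of 7 basal keratinocyte markers ran from 17396 to 21635 in the knockouts and from 10016 to 10994 in the controls. That sum is mostly Krt14 and Krt5, which were higher, while Krt15, Col17a1, Itga6 and Trp63 were lower. Summed FPKM of 7 suprabasal markers ran from 5114 to 7308 in the knockouts and from 9881 to 10959 in the controls. That sum is mostly Krt1, Krt10 and Krt77, and 3 genes were higher and 3 lower. Krt77 averaged 16.6 FPKM in knockouts and 3500 FPKM in controls, and Krt10 and Krt2 were also lower. Krt1 averaged 3009 FPKM in knockouts and 782 FPKM in controls, and Ivl and Flg were also higher. The suprabasal gene Lor did not pass the test. Markers of macrophages and neutrophils summed to 58.7 to 108 FPKM in the knockouts and to 17.2 to 25.9 FPKM in the controls. Of 6 tested genes, 4 were higher (Lyz2, C1qb, C1qc and Cxcr2) and 1 was lower. The lower gene, Adgre1, averaged 1.88 FPKM in knockouts and 6.74 FPKM in controls, and Cd68 did not pass the test. Ly6g was nearly absent from both groups, with 1 read in knockout 1 (0.0528 FPKM) and 0 in every other sample. The 5 melanocyte markers, all higher, summed to 207 to 211 FPKM in the knockouts and to 7.93 to 11 FPKM in the controls.

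Other markers were lower or scarce. Langerhans cell markers summed to 366 to 544 FPKM in the knockouts and to 964 to 1609 FPKM in the controls, with 3 of 4 lower. T cell markers summed to 13.9 to 25.3 FPKM in the knockouts and to 38.3 to 53.7 FPKM in the controls. Of these, 3 of 5 were lower (Cd3e, Cd3g and Trdc) and 1 was higher (Trac). Muscle markers, 4 of 4 tested lower, summed to 0.613 to 1.64 FPKM in the knockouts and to 11.8 to 48 FPKM in the controls. Fibroblast markers, 3 of 4 tested lower, summed to 1.71 to 5.36 FPKM in the knockouts and to 6.41 to 14.7 FPKM in the controls. Hair matrix and shaft markers summed to 9.98 to 14.7 FPKM in the knockouts and to 10.8 to 12.7 FPKM in the controls, with 1 of 3 tested higher and 1 lower. Krt35, below the filter, was at 0 in every knockout and at 0.229, 0.274 and 0.15 FPKM in controls 1 to 3. Endothelial markers, none of which passed the filter, summed to 0.529 to 1.17 FPKM in the knockouts and to 0.538 to 3.22 FPKM in the controls. The part of these cells in the rise of the mitotic genes was not tested.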

How the data were processed

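RNA of back epidermis was sequenced from 3 Spry1 knockout and 3 control samples, with groups and replicate numbers taken from the sample titles. Per the labels' protocols, each library used 0.4 ug of total RNA, isolated with Trizol. The authors deposited 1 table of FPKM values, 1 column per sample. HISAT2 2.0.5, featureCounts 1.5.0-p3 and GRCm38 are named per the submitters' processing notes. The sources used here give no annotation release, strandedness or formula for FPKM.

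FPKM multiplied by the GENCODE M21 exon length (54495 IDs matched) gave whole reads, within 0.1 reads, for 97.5% to 97.9% of values per sample. The totals by which the FPKM had been scaled, read from these steps, were 16451622 to 20094977 in the knockouts and 18226691 to 19490749 in the controls, beside recovered sums of 18670224 to 21024680 and of 18383308 to 18949430. Of the summed FPKM, 18.6% to 22.2% in the knockouts and 12.6% to 16.0% in the controls lay in the 10 highest genes, which can shift all other values.

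Values were transformed to log2(FPKM + 1), and 12629 genes averaging 1 FPKM or more were fitted on genotype alone with limma 3.58.1 in R 4.3.3 (two-sided, with a variance trend). Benjamini-Hochberg adjustment ran over all of them, with a threshold of 0.05. The test was also run on simulated data with few changed genes and no sample set apart, so that run does not measure its errors here. Replicates differed by more than sampling noise (chi-square per gene 12 to 68.2). The members and lists were chosen with earlier results of these data known. All members are named. Sample values are given for Mki67, Plk1, the member with the largest and the one with the smallest absolute log2 fold change of each role, and members that did not pass. Of each other list the 3 lowest adjusted p and up to 3 members called in the opposite direction are named. The sample values of Pttg1, and Hjurp, were added after their values were seen. The fit was repeated with limma-voom on recovered reads, TPM scaling, median-ratio scaling, a pseudocount of 0.1, no filter, a replicate block and each sample left out. Motifs were counted with Python 3.11.15 and figures drawn with matplotlib 3.10.9.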

Additional observations from a re-analysis of the deposited data

How the results depend on the processing

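The 39 rises among the members held under every alternative except TPM scaling, where Cdc25b was lost and 38 remained, and no member or list gene changed direction past the threshold. The falls of Ttk and Pttg1 were weaker: their log2 fold changes ran from -0.87 to -0.41 and from -0.70 to -0.35 over the alternatives, and 1 of them was called lower without the filter and 0 to 2 with 1 sample left out. The adjusted p of Espl1 ran from 0.0582 to 0.971. The median member log2 fold change was 2.05 with a pseudocount of 0.1, 1.95 with limma-voom on recovered reads, and 1.56 to 1.82 with 1 sample left out.

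TPM scaling called 2055 of all 12629 genes tested higher (16.3%) and 4470 lower (35.4%). With it, the number higher was 7 of 16 for condensin and cohesin, 13 of 30 for other kinetochore genes and 3 of 17 for the APC/C. It was 0 of 5 for CDK inhibitors (1 at an unadjusted p below 0.05 and 2 with limma-voom) and 1 of 6 for cyclin D. The number lower was 2 of 16 for condensin and cohesin, 2 of 30 for kinetochore genes, 5 of 13 for MuvB and 3 of 5 for CDK inhibitors. The APC/C and cyclin D counts higher and the MuvB count lower were near the shares of all genes. Limma-voom, with 30.1% of all genes lower, called 2 condensin and cohesin genes, 1 kinetochore gene and 2 CDK inhibitors lower. Median-ratio scaling called 1 kinetochore gene and 2 CDK inhibitors lower. Without the filter 0 APC/C genes (1 at an unadjusted p below 0.05) and 1 G2/M regulator were lower. With 1 sample left out, the number lower was 0 to 2 for kinetochore genes, 0 to 1 for the APC/C, 1 to 2 for G2/M regulators and 1 to 2 for CDK inhibitors, and the number higher was 2 to 4 for cyclin D. Over all genes 3159 to 3943 were then higher and 2488 to 3370 lower. The cause of these shifts was not tested.

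The labels name no pairing by replicate number. Same-numbered samples deviated from their group means with correlations of -0.098, -0.111 and -0.125, and differently numbered ones with -0.043 to 0.147. With n = 3 each, these values cannot decide whether samples shared a litter or a batch. A fit with the number as a replicate block called 3216 genes higher and 2618 lower, 39 members higher and 1 lower (Ttk; Pttg1 adjusted p = 0.0637), and 1 other G2/M regulator lower.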
